A study of Mus musculus with 18 samples.

Results

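The ubiquitin-specific proteases (USP) of mouse embryonic fibroblasts were followed through proteasome inhibition, in cells with and without a tethered Nrf1-MafG transcription factor. The set was every gene of the deposited tables whose symbol is Usp followed by a digit, other than the proteasome-bound Usp14, with at least 10 fragments in at least 3 of the 18 libraries and no HIDATA counting status in any. Of 24318 genes in the tables, 55 symbols other than Usp14 matched and 50 met the limit. The rule reads the symbol, so Usp6nl, a GTPase-activating protein that is no protease, is included, and the USP-type proteases Cyld and Uspl1 are not.

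Ubiquitin-specific proteases are the largest family of deubiquitinases. They cleave ubiquitin from proteins or take ubiquitin chains apart, which can spare a substrate from the proteasome, end a signal or return free ubiquitin to the pool. When the proteasome is inhibited, ubiquitin chains accumulate, and Nrf1, bound to DNA with a small Maf partner, is known for activating the proteasome subunit genes.

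Both lines were immortalised fibroblasts of the genotype MafF-/-::MafG-/-::MafK-/-, so all 6 groups lack the cells' own small Maf genes. The labels do not say whether each line is 1 clone. Mock cells were compared with cells expressing T-N1G, in which Nrf1 is joined to MafG; "with T-N1G" below means the latter cells. The genotype labels spell this construct T-NG1, and its promoter is not given in the sources used here. Each line was kept for 12 h with vehicle or with MG132, a proteasome inhibitor, at 0.3 or 1.0 µM, and poly(A) RNA of 3 libraries per group was sequenced. Nothing states that the 3 libraries came from separate cultures, so p-values measure the spread between libraries, which may be technical.

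Depth was 18164380 to 21293709 fragments per library. Mafg, the deleted and re-expressed partner, lay at 0.276 to 1.32 CPM (fragment counts scaled to library size, TMM-adjusted) in all mock libraries and at 142 to 172 CPM with T-N1G under vehicle. With T-N1G Mafg and Nfe2l1, the gene of Nrf1, were higher at each dose: Mafg reached 2700 to 4240 CPM and Nfe2l1 14700 to 21500 CPM at 1.0 µM, against 1020 to 1170 CPM for Nfe2l1 under vehicle. The part that this dose-linked transgene level has in the results below was not tested. The marker sums that follow are CPM by library size alone, without the TMM adjustment. Summed fibroblast markers, 12 of 12 measured, were at 13070.4 to 14135.7 CPM in mock cells under vehicle. They were at 12078.5 to 12631.5 CPM there at 0.3 µM and 9452.9 to 13707.6 CPM at 1.0 µM. With T-N1G they were at 13037.8 to 14358.4, 9200.3 to 9846.9 and 9074.8 to 10454.4 CPM, so treated libraries lay below vehicle without overlap. Summed markers of leukocytes (8 of 9 measured) were at 8.0 to 8.8 CPM in mock cells under vehicle and 9.9 to 13.1 CPM at 1.0 µM, and at 5.8 to 7.3 and 15.4 to 17.9 CPM with T-N1G. Those of muscle (5 of 5) were at 6.6 to 7.4 and 1.4 to 4.3 CPM in mock cells, and at 7.9 to 11.1 and 1.6 to 4.0 CPM with T-N1G, and those of fat (4 of 4) at or below 0.9 CPM. Summed endothelial markers (6 of 6 measured) were at 6.3 to 7.1 CPM in mock cells under vehicle and 64.0 to 82.7 CPM at 1.0 µM, and at 5.3 to 7.1 and 24.5 to 39.5 CPM with T-N1G. Summed epithelial markers (7 of 7) were at 215.9 to 219.8 and 332.5 to 478.5 CPM in mock cells, and at 98.5 to 101.6 and 53.8 to 78.0 CPM with T-N1G. No marker of these lists was at 0 in all libraries. The part of these lists in the results was not tested. Libraries at 1.0 µM lay further apart than the rest: the median SD of log2 CPM over genes was 0.154 in mock and 0.184 with T-N1G, against 0.0538 and 0.068 under vehicle.

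Levels were compared between genes only as FPKM, the authors' fragment counts scaled by gene length and library. In mock cells under vehicle the median of the 50 genes was 12 FPKM, with 26 genes at 10 FPKM or more, 15 between 1 and 10 and 9 below 1. Usp5, which takes apart unanchored ubiquitin chains, led with 57.2 ± 0.896 FPKM (SD, n = 3), followed by the DNA repair protease Usp1 with 52.5 ± 1.55 FPKM and Usp4 with 46.4 ± 1.07 FPKM. T-N1G cells under vehicle had the same leading 3 genes. After 1.0 µM MG132 the order differed between the lines. In mock cells Usp5 was eleventh with 30.9 ± 4.4 FPKM and the splicing factor Usp39 first with 56.4 ± 4.19 FPKM. With T-N1G Usp5 was first with 125 ± 6.1 FPKM, followed by Usp45 with 78.4 ± 4.08 FPKM and Usp19 with 76.1 ± 7.32 FPKM.

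**Figure D1:**
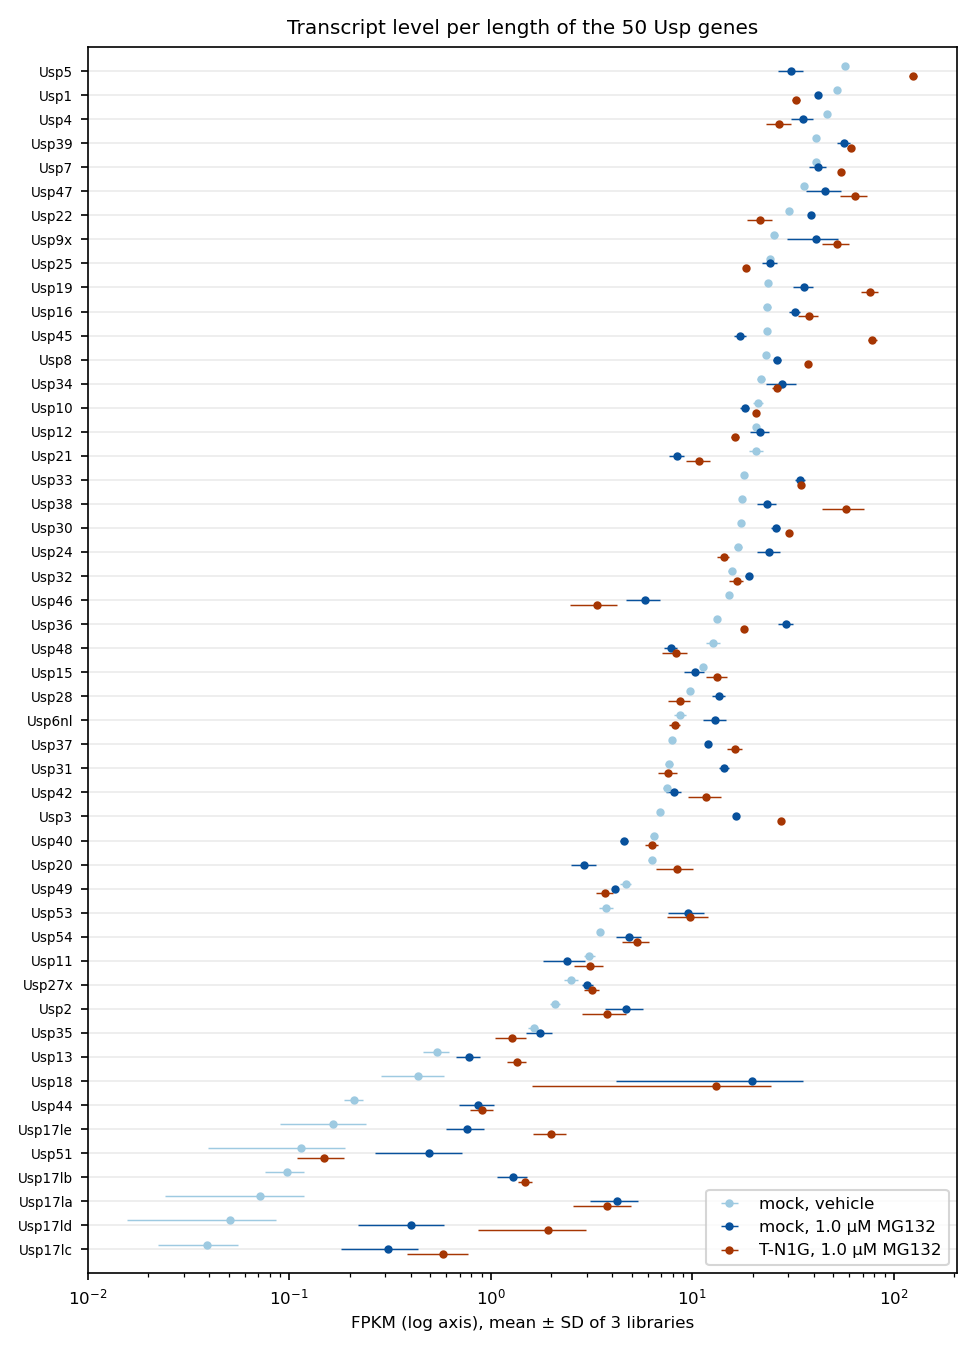
Mean FPKM (log axis, bars are the SD of 3 libraries) of the 50 Usp genes in mock cells under vehicle, mock cells at 1.0 µM MG132 and T-N1G cells at 1.0 µM MG132. Usp5 is the highest gene under vehicle and lies far apart between the lines at 1.0 µM, as does Usp45, and the Usp17l copies lie at the bottom under vehicle and higher at 1.0 µM (Usp17la at 4.24 FPKM in mock cells).

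The limit of 10 fragments left a few rare genes near its edge. Usp43, with at most 8 fragments in a library, and Usp26, with at most 6, lay just outside it, and Usp29, Usp50 and Usp9y had at most 3, 3 and 1. Usp17lc, which reached 10 fragments in 5 libraries, Usp17lb and Usp17ld in 6, and Usp51 in 7 lay just inside. With Usp17le, Usp17la and Usp44 these are the 7 genes under 10 fragments in at least 1 library. Usp17lb and Usp17lc reached 10 in libraries at 1.0 µM alone, Usp17la in treated libraries alone, and Usp17ld and Usp17le there but for 1 T-N1G vehicle library of Usp17le. Usp51 reached it in the 6 treated mock libraries and 1 T-N1G vehicle library. These 6 genes entered through the groups where they were high, so their rises there are a description and support no count. Counts are therefore also given for the 43 genes with 10 fragments or more in all 18 libraries. All 50 genes passed the expression filter of the test.

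At 1.0 µM MG132 most Usp genes changed in either line, and more rose than fell. In mock cells 43 of 50 were called by edgeR's quasi-likelihood test at a Benjamini-Hochberg adjusted p under 0.05, 30 higher and 13 lower, where 69.7% of all 13258 genes tested were called. With T-N1G 40 were called, 29 higher and 11 lower, against 76.4% of all genes. The 43 well-covered genes gave 23 higher and 13 lower in mock and 23 higher and 11 lower with T-N1G. The share of Usp genes that rose, 60.0% in mock and 58.0% with T-N1G, stood beside 32.4% and 37.5% of all genes, and the share that fell, 26.0% and 22.0%, beside 37.4% and 38.9%. Over the 43 genes the share that rose was 53.5% in each line. The median log2 change of the 50 genes was 0.36 in mock and 0.45 with T-N1G, and 0.27 and 0.38 over the 43, with medians of all genes of -0.04 and -0.01. Scaling by library size alone moved the median of all genes with T-N1G by -0.14 on the log2 scale and gave 27 Usp genes higher and 14 lower there. No called Usp gene changed its sign under either scaling alternative.

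The summed level of the 50 genes was 3812 ± 19.0 CPM in mock cells under vehicle, 4264 ± 34.8 CPM at 0.3 µM and 4354 ± 289 CPM at 1.0 µM (SD, n = 3). With T-N1G it was 3760 ± 45.5, 4886 ± 65.7 and 5486 ± 270.0 CPM. All libraries of T-N1G cells at 1.0 µM, the lowest at 5193 CPM, lay above all libraries of mock cells at that dose, the highest at 4661 CPM. A few abundant genes, Usp5, Usp45, Usp19 and Usp38, made up most of this gap. By gene, 22 of 50 were called higher and 13 lower with T-N1G at 1.0 µM, against 30.7% and 31.3% of all genes.

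**Figure D2:**
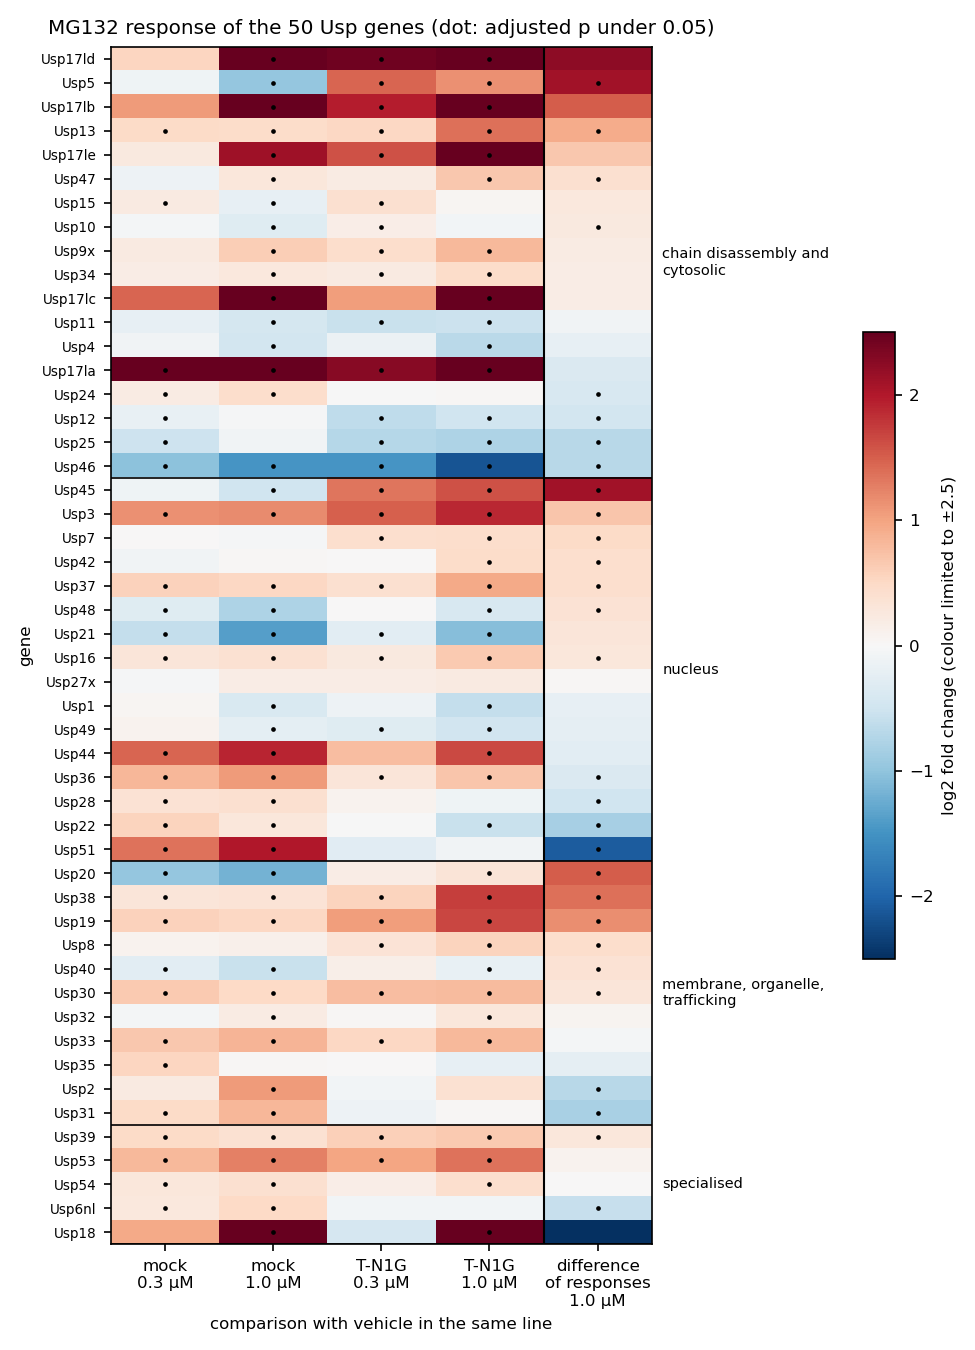
Log2 fold changes of the 50 Usp genes at 0.3 and 1.0 µM MG132 over vehicle in each line and, right of the black line, the difference of the 1.0 µM responses (T-N1G less mock). Genes are grouped by role, colour is limited to ±2.5, and a dot marks an adjusted p under 0.05: 43 dots in mock and 40 with T-N1G at 1.0 µM.

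Read together, 23 Usp genes rose in both lines at 1.0 µM, which is 46.0% of the 50 against 23.8% of all genes, and 17 of the 43 did (39.5%). A further 8 fell in both, 16.0% against 27.8%. Usp5, Usp20 and Usp45 fell in mock and rose with T-N1G, 6.0% against 3.73%, and Usp22 rose in mock and fell with T-N1G, 2.0% against 2.16%. Usp27x and Usp35 were called in neither line.

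Whether the lines responded unequally was tested by the interaction term of line and treatment. At 1.0 µM it was called for 29 of 50 genes, 18 with the higher and 11 with the lower response with T-N1G, where 45.0% of all genes were called (22.9% higher, 22.1% lower), and for 28 of the 43, 18 higher and 10 lower. The balance of directions depended on the scaling and the filter. It was 13 higher and 12 lower with library size alone and 10 higher and 11 lower without the expression filter. The smaller differences called higher, those of Usp10, Usp16, Usp30, Usp39, Usp40, Usp42, Usp47 and Usp48, each lost the call under RLE (relative log expression) scaling, library size alone or no filter. Each also lost it when 1 library was left out, for any 1 of 17, 15, 6, 9, 1, 10, 15 and 9 of the 18 libraries in that order (for Usp40, mock vehicle library 3), with adjusted p up to 0.243. At 0.3 µM the difference was called for 13 genes, 8 higher and 5 lower, against 25.1% of all genes (14.2% higher, 11.0% lower), and for 30 genes (15 and 15) when only the 4 groups compared were fitted.

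**Figure D3:**
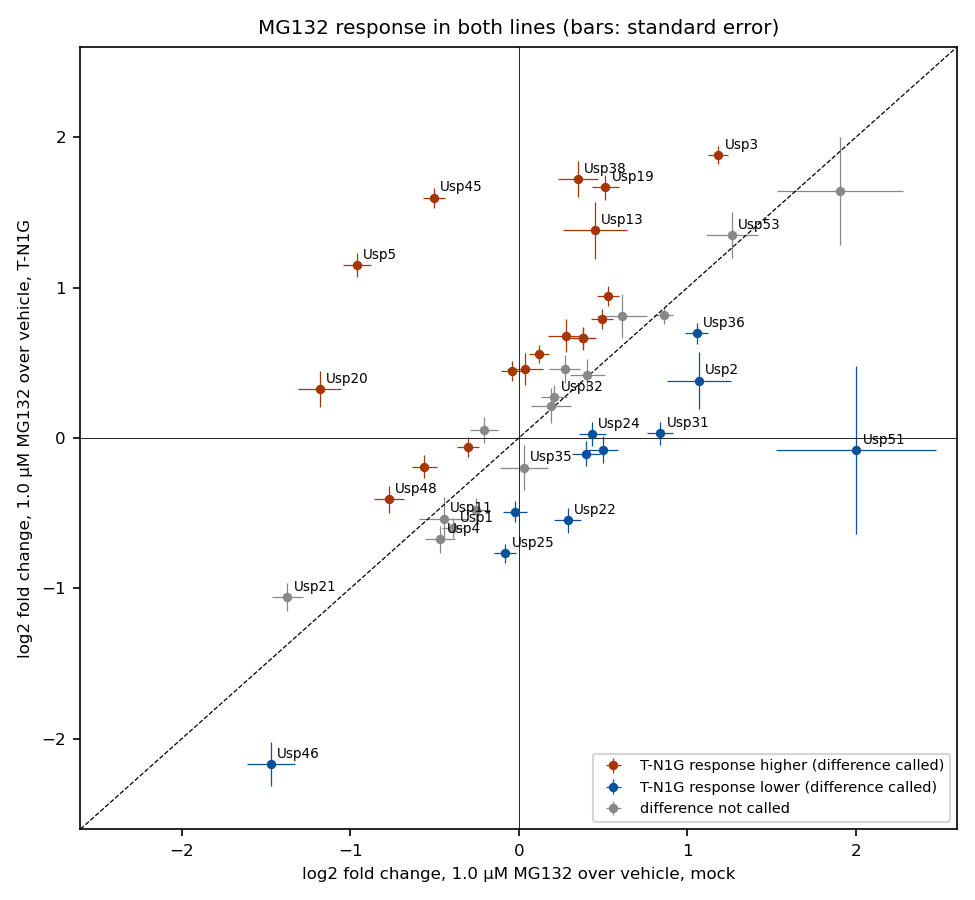
Log2 change at 1.0 µM MG132 over vehicle in mock (x) and T-N1G cells (y) for 44 Usp genes, with standard errors as bars and equality as the dashed line. The 5 Usp17l copies and Usp18 lie outside the axes. Usp5, Usp45 and Usp20 sit at the upper left, Usp46 lowest, and colour marks the genes whose difference between the lines was called.

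Among the 18 cytosolic and chain-directed proteases, 10 rose and 6 fell in mock and 10 rose and 5 fell with T-N1G at 1.0 µM, and 5 of the 10 in each line are the rare Usp17l copies, which entered through treated libraries. With these copies counted, the shares that rose, 55.6% in each line, stand beside 32.4% and 37.5% of all genes. Because of how the copies entered, these shares cannot tell whether rises were in excess in this group. The shares that fell, 33.3% and 27.8%, stand beside 37.4% and 38.9%. The difference between the lines was called for 8 of the 18 genes (44.4%, against 45.0% of all genes), 4 in each direction. Usp5 and its relative Usp13 were both higher with T-N1G, and Usp46, Usp25, Usp12 and Usp24 had the lower response there.

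Usp5 (mm9 chromosome 6, 124765036 to 124779465) had 182, 181 and 175 CPM in the 3 mock libraries under vehicle, 161, 172 and 166 CPM at 0.3 µM and 82.3, 108 and 86.4 CPM at 1.0 µM. With T-N1G it had 171, 176 and 166 CPM under vehicle, 478, 468 and 456 CPM at 0.3 µM and 398, 378 and 361 CPM at 1.0 µM. All mock libraries at 1.0 µM lay below all vehicle libraries, all treated T-N1G libraries lay above them, and the groups did not overlap. The log2 change at 1.0 µM was -0.96 (SE 0.0819, adjusted p = 1.19e-08) in mock and 1.15 (SE 0.0814, adjusted p = 4.62e-10) with T-N1G, a difference of 2.11 (SE 0.115, adjusted p = 2.69e-10). The difference was already 1.56 (SE 0.115, adjusted p = 3.53e-08) at 0.3 µM, where mock cells showed no call (-0.11, SE 0.0807, adjusted p = 0.281). At 1.0 µM Usp5 was 4.11-fold higher in T-N1G than in mock cells, and under vehicle the log2 difference was -0.07 (SE 0.0807, adjusted p = 0.632).

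Usp13, a close relative of Usp5 of broad substrate range, was rare. It had 3.04, 4.01 and 3.45 CPM in mock and 5.59, 6.03 and 6.88 CPM with T-N1G at 1.0 µM, against 2.4, 3.01 and 2.28 CPM in mock and 2.92, 1.98 and 2.21 CPM with T-N1G under vehicle. Each T-N1G library at 1.0 µM lay above every other library of the series, and the difference of the responses was 0.93 (SE 0.269, adjusted p = 0.00908). Its rise in mock cells, 0.45 (SE 0.192, adjusted p = 0.0439), missed the threshold with library size alone (adjusted p = 0.121), without both number 2 libraries at 1.0 µM (0.1) and when any 1 of 7 libraries was left out (0.052 to 0.098).

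Usp46, which acts with a WD-repeat cofactor that also activates Usp1 and Usp12, fell most in both lines. Its levels were 47.5, 49.9 and 48.9 CPM under vehicle, 23, 23.5 and 25.2 at 0.3 µM and 13.9, 18.2 and 20.6 at 1.0 µM in mock cells. With T-N1G its levels were 44.6, 47.8 and 47.9 CPM under vehicle, 15.8, 16.5 and 17.9 at 0.3 µM and 7.31, 11.4 and 12.4 at 1.0 µM. Treated and vehicle libraries did not overlap, and the 1.0 µM libraries of T-N1G cells all lay below those of mock cells. The log2 changes at 1.0 µM were -1.47 (SE 0.141, adjusted p = 4.89e-08) in mock and -2.17 (SE 0.148, adjusted p = 2.82e-10) with T-N1G, with a difference of -0.70 (SE 0.201, adjusted p = 0.00876).

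Usp12, close to Usp46 in sequence and cofactor, fell to 68 ± 3.09 CPM from 95.4 ± 2.62 CPM with T-N1G, and in mock cells stood at 88.1 ± 9.26 CPM against 89.4 ± 0.967 CPM. The difference was -0.47 (SE 0.102, adjusted p = 0.0011). Usp25, which trims ubiquitin in receptor signalling, fell from 136, 141 and 129.6 CPM to 77.5, 80.2 and 81.3 CPM with T-N1G at 1.0 µM. In mock cells it had 112, 104 and 108 CPM under vehicle, 77.9, 73.9 and 76 at 0.3 µM and 104, 93.7 and 109.5 at 1.0 µM. Mock libraries lay below vehicle at 0.3 µM without overlap and overlapped it at 1.0 µM, while T-N1G libraries lay below vehicle at both doses, and the difference at 1.0 µM was -0.69 (SE 0.0908, adjusted p = 8.24e-06).

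The paralogs Usp4, Usp11 and Usp15, which share a DUSP-UBL domain pair, gave unlike calls. Usp4 fell in both lines, with log2 changes of -0.47 and -0.67 and libraries of 105, 129.7 and 133 CPM in mock and 82.9, 94.2 and 109.7 CPM with T-N1G at 1.0 µM. Its vehicle libraries were higher, at 168, 174 and 167 CPM in mock and 155, 151 and 151 CPM with T-N1G. Usp11 fell in both, by call, with log2 changes of -0.44 and -0.54, and its mock call was lost when only the groups compared were fitted (adjusted p = 0.0763) and without mock vehicle library 1 or 3 or mock library 1 or 2 at 1.0 µM (adjusted p up to 0.167). Usp15 rose at 0.3 µM in both lines, by 0.22 and 0.39. The mock call at 0.3 µM was lost with library size alone (adjusted p = 0.142) and without library 2 or 3 of mock vehicle or 1 or 3 of mock 0.3 µM (up to 0.106). At 1.0 µM its log2 change was 0.05 (SE 0.0849, adjusted p = 0.583) with T-N1G. In mock cells it fell at 1.0 µM (-0.21, SE 0.0852, adjusted p = 0.0388), a call lost under RLE scaling (adjusted p = 0.21) and when any 1 of 11 libraries was left out (adjusted p up to 0.424). Usp24, a very large protease, rose by call in mock cells, from 179.6, 185 and 194 CPM to 289, 234 and 232 CPM at 1.0 µM. With T-N1G it had 147, 156 and 147 CPM under vehicle and 161, 140.3 and 156 CPM at 1.0 µM, and the difference was -0.41 (SE 0.114, adjusted p = 0.0069). Usp9x, which spares many substrates, rose in both lines with libraries far apart at 1.0 µM (594, 334 and 516 CPM in mock, 659.5, 509 and 698 CPM with T-N1G), and the difference was 0.20 (adjusted p = 0.456). Usp47, a protease linked to base excision repair, rose to 245 ± 46.3 CPM from 202 ± 0.854 CPM in mock cells and to 349 ± 54.3 CPM from 218 ± 3.97 CPM with T-N1G, and the difference was 0.40 (SE 0.156, adjusted p = 0.0441). Its mock call was lost with library size alone (adjusted p = 0.0796) and without mock library 1 at 1.0 µM (0.0992). Usp34, which acts on axin in Wnt signalling and shares its deposited locus with Ahsa2, rose in both lines, by 0.27 and 0.46, and the mock call was lost with library size alone (adjusted p = 0.0807).

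The Usp17l copies, a cluster of near-identical genes on mm9 chromosome 7 between 110398599 and 112011181, entered the set through treated libraries, so the values are given as a description with no test against vehicle. Because the copies are so alike, the split of fragments between them is uncertain, and their sum is given first. It was 0.735 ± 0.161 CPM in mock cells under vehicle, 2.07 ± 0.566 at 0.3 µM and 14.3 ± 3.1 at 1.0 µM, and 0.939 ± 0.391, 3.43 ± 1.05 and 18.4 ± 5.06 CPM with T-N1G. In fragments, 13 to 20 per mock library and 15 to 30 per T-N1G library under vehicle became 217 to 338 and 236 to 369 at 1.0 µM. Each library at 1.0 µM lay above each library at 0.3 µM and under vehicle, in both lines.

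Usp17la held most of the fragments at 1.0 µM, with 8.85, 13.7 and 8.63 CPM in mock and 12.2, 9.87 and 6.18 CPM with T-N1G against 0.138, 0.0926 and 0.319 CPM in mock and 0.185, 0.276 and 0.184 CPM with T-N1G under vehicle. Its fragments, summed over 3 libraries, were 12 in mock and 14 with T-N1G under vehicle, and 597 and 488 at 1.0 µM. Scaled, the ratios were 56.4 and 43.2. Usp17lb rested on 8 fragments in mock and 3 with T-N1G under vehicle, with ratios of 12.8 and 39.3. For Usp17lc these were 4 and 7 fragments, with ratios of 7.37 and 8.15. Usp17ld had 5 and 5 fragments there, with ratios of 7.71 and 35.9, and Usp17le 19 and 32, with 4.42 and 6.93. The ratios are a description, since the copies entered through treated libraries. No difference between the responses was called for any of the 5, and the standard errors of that difference ran from 0.701 to 1.41 on the log2 scale. Comparing levels at 1.0 µM directly, Usp17ld and Usp17le were higher in T-N1G than in mock cells, with fitted log2 differences of 2.24 (SE 0.456) and 1.42 (SE 0.375). These are a description, since both genes reached 10 fragments in more T-N1G than mock libraries and the split between copies is uncertain.

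**Figure D4:**
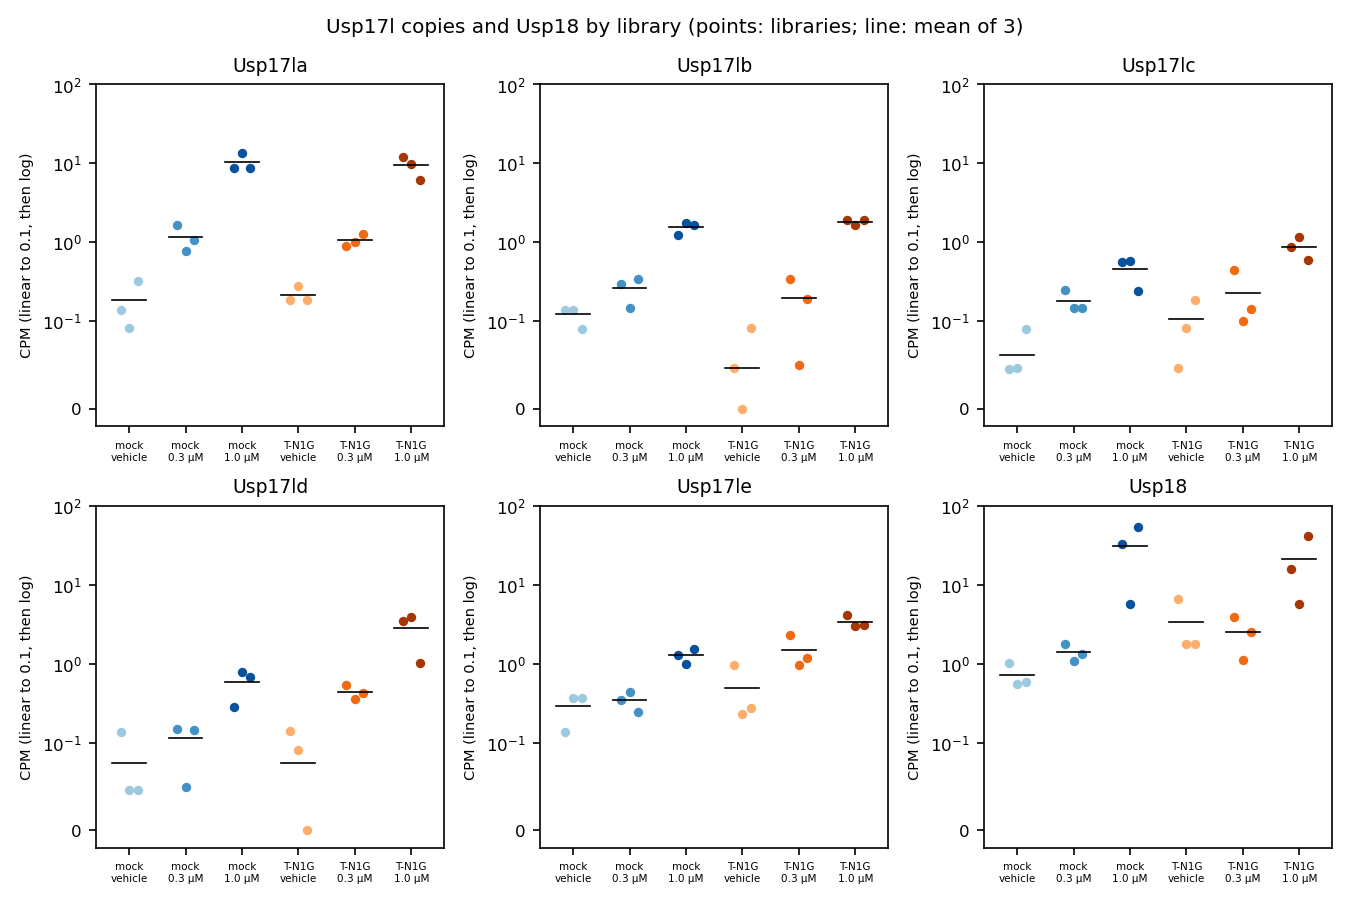
CPM of the 5 Usp17l copies and Usp18 by library (points) and group mean (line), on an axis that is linear to 0.1 and logarithmic above. The copies step up at 1.0 µM in both lines, and Usp18 spreads from 5.7 to 54.6 CPM among the 3 mock libraries at 1.0 µM.

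The start regions of the copies are printed because each copy had more fragments at 1.0 µM than under vehicle in both lines. RefSeq promoters (GRCm38.p6) were found for 4 of the 5, and each holds a stretch of 49 bases in which 2 copies carry the antioxidant response element core TGACNNNGC, the kind of site that CNC-small Maf pairs bind, on the opposite strand. Capitals mark the 9 bases of the element in Usp17la and the aligned bases in the others. The windows are chr7:104856766-104857065 (+), chr7:104842534-104842833 (-), chr7:103416446-103416745 (+) and chr7:103252456-103252755 (-), in the order shown, and the stretches begin 86, 71, 128 and 150 bases before the start.
Usp17la: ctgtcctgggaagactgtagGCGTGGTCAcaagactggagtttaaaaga
Usp17lb: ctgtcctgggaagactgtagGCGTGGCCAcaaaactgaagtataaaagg
Usp17lc: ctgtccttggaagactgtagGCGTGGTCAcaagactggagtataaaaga
Usp17ld: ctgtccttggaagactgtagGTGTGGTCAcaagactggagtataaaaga
Against Usp17la, the stretch of Usp17lc has 2 mismatches, that of Usp17ld 3 and that of Usp17lb 5. Usp17lb and Usp17ld have 1 mismatch each inside the capitals and lack the core.

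Of the 16 nuclear proteases, 8 rose and 5 fell at 1.0 µM in each line. The 50% that rose stand beside 32.4% and 37.5% of all genes, and the 31.2% that fell beside 37.4% and 38.9%. The difference between the lines was called for 11 (68.8%, against 45.0% of all genes), 7 higher and 4 lower with T-N1G. Usp45 stood out by size among the higher, and the histone H2B proteases Usp22 and Usp51 were the lowest. Usp51 entered through treated mock libraries, so its mock rise and its place here are a description.

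Usp45, which acts on the ERCC1 repair nuclease subunit, lies on mm9 chromosome 4 (21703416 to 21765019). It had 138, 141 and 147 CPM in mock cells under vehicle, 127, 132 and 134 at 0.3 µM and 93.3, 101 and 107 at 1.0 µM. With T-N1G it had 148, 161 and 149.7 CPM under vehicle, 381, 394 and 378 at 0.3 µM and 490.0, 444 and 452 at 1.0 µM. The 3 mock libraries at 1.0 µM were the lowest of the series and the 3 T-N1G libraries at that dose the highest. The log2 change at 1.0 µM was -0.50 (SE 0.0659, adjusted p = 2.29e-06) in mock and 1.60 (SE 0.0665, adjusted p = 5.91e-13) with T-N1G, and the difference was 2.10 (SE 0.0934, adjusted p = 4.45e-11), after 1.45 (SE 0.0928, adjusted p = 9.09e-09) at 0.3 µM.

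Usp22, the H2B protease of the SAGA coactivator, had 134, 141 and 132 CPM under vehicle, 191, 204 and 203 at 0.3 µM and 170.1, 164 and 164 at 1.0 µM in mock cells. T-N1G cells had 136, 137 and 139 CPM under vehicle, 128, 145 and 136 at 0.3 µM and 80.9, 107 and 93.5 at 1.0 µM. Treated mock libraries lay above and T-N1G libraries at 1.0 µM below all vehicle libraries. The log2 changes at 1.0 µM were 0.29 (SE 0.0798, adjusted p = 0.00352) and -0.55 (SE 0.0806, adjusted p = 6.35e-06), the difference -0.84 (SE 0.113, adjusted p = 1.05e-05), and the mock rise missed the threshold with library size alone (adjusted p = 0.0504).

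Usp51 and Usp27x can take the place of Usp22 on the same SAGA partners. Usp51 was rare, with 2 to 9 fragments per mock library under vehicle, 10 to 16 at 0.3 µM and 10 to 26 at 1.0 µM, and 4 to 11 in all T-N1G libraries. Its levels were 0.23, 0.0926 and 0.411 CPM in mock and 0.51, 0.184 and 0.276 CPM with T-N1G under vehicle, and 1.18, 1.37 and 0.48 CPM in mock and 0.368, 0.338 and 0.217 CPM with T-N1G at 1.0 µM. Its fitted log2 change in mock cells was 2.00 (SE 0.475, adjusted p = 0.00109), while T-N1G cells overlapped their vehicle libraries (-0.08, SE 0.559, adjusted p = 0.903). The mock change and the difference between the lines are a description, since the treated mock libraries brought the gene into the set. The difference was -2.08 (SE 0.743, adjusted p = 0.0292). That difference missed the threshold without mock vehicle library 1 or 2, mock library 2 at 1.0 µM, T-N1G vehicle library 1 or T-N1G library 3 at 1.0 µM (adjusted p 0.0503 to 0.12). Usp27x was called in neither line, with log2 changes of 0.19 (SE 0.117, adjusted p = 0.152) and 0.21 (SE 0.117, adjusted p = 0.102).

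Usp3, which removes ubiquitin from histones H2A and H2B, rose in both lines and further with T-N1G. Mock cells had 39.8, 37.7 and 38.3 CPM under vehicle and 90.1, 84.6 and 88.3 CPM at 1.0 µM, and T-N1G cells 41.6, 39.5 and 40.6 CPM under vehicle and 155, 145 and 149 CPM at 1.0 µM. Treated and vehicle libraries did not overlap, nor did the lines at 1.0 µM, the log2 changes were 1.18 (SE 0.0585, adjusted p = 1.79e-11) and 1.88 (SE 0.059, adjusted p = 2.30e-14), and the difference was 0.70 (SE 0.0817, adjusted p = 2.00e-06). Usp36, a nucleolar protease, had the smaller response with T-N1G: it went from 78.8, 75.6 and 73.6 to 173, 149 and 152 CPM in mock and from 64.3, 62.1 and 58.2 to 98.6, 98.1 and 102 CPM with T-N1G, with a difference of -0.36 (SE 0.0956, adjusted p = 0.00521). It rose in both lines by call and was lower with T-N1G under vehicle too.

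Usp21, an H2A protease, fell in both lines, from 40.1, 46.7 and 42.6 to 15.3, 18.3 and 16.3 CPM in mock and from 45.4, 45.4 and 46.3 to 18.6, 22.5 and 24.6 CPM with T-N1G, without overlap. The log2 changes were -1.37 (SE 0.0945, adjusted p = 8.33e-10) and -1.06 (SE 0.0931, adjusted p = 8.08e-09), and the difference missed the threshold (0.31, SE 0.132, adjusted p = 0.0618). Usp1, which takes ubiquitin from PCNA and FANCD2, fell from 182, 192 and 187 CPM to 143, 148 and 138 CPM in mock and from 170.1, 183 and 162 CPM to 112, 119 and 109 CPM with T-N1G. All libraries at 1.0 µM lay below all vehicle libraries, and the changes were -0.39 (SE 0.0657, adjusted p = 4.15e-05) and -0.60 (SE 0.0661, adjusted p = 1.65e-07). Usp48, a further H2A protease, fell from 74.3 ± 5.53 to 43.6 ± 3.48 CPM in mock and from 62.1 ± 3.46 to 46.8 ± 6.48 CPM with T-N1G, with a difference of 0.36 (SE 0.129, adjusted p = 0.0287).

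Usp7, the protease of MDM2 and p53, rose with T-N1G from 212, 225 and 211 to 299, 293 and 289.9 CPM and in mock cells stood at 229, 228 and 224 CPM under vehicle and 244, 208 and 209.9 CPM at 1.0 µM. The difference was 0.48 (SE 0.0923, adjusted p = 3.51e-04). Usp16, Usp37, Usp42 and Usp48 also had a higher response with T-N1G by call, between 0.28 for Usp16 and 0.42 for Usp42 on the log2 scale. Usp16 and Usp37 lie in deposited loci that they share with neighbouring genes, among them Cct8 for Usp16. Usp49, a further H2B protease, fell in both lines (-0.25, SE 0.082, adjusted p = 0.0108; -0.48, SE 0.0826, adjusted p = 3.91e-05), and its mock call was lost under RLE scaling (adjusted p = 0.0776) and when any 1 of 9 libraries was left out (adjusted p up to 0.182). Usp28, a relative of Usp25, rose by call in mock cells alone at 1.0 µM. Its response was lower with T-N1G (difference -0.50, SE 0.117, adjusted p = 0.00194). Usp44, a rare H2B protease, rose in both lines, from 0.599, 0.509 and 0.502 to 2.14, 2.38 and 1.58 CPM in mock and from 0.927, 0.23 and 0.967 to 1.9, 2.48 and 2.28 CPM with T-N1G, and the difference of -0.26 had a standard error of 0.525.

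Of the 11 proteases of membranes, organelles and trafficking, 7 rose and 2 fell in mock and 7 rose and 1 fell with T-N1G at 1.0 µM, 63.6% upward in each line against 32.4% and 37.5% of all genes. The difference was called for 8 (72.7%, against 45.0%), 6 higher with T-N1G (Usp20, Usp38, Usp19, Usp8, Usp40 and Usp30) and 2 lower (Usp31 and Usp2).

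Usp20 and Usp33 are paralogs that act on membrane receptors and other substrates. Usp20 (mm9 chromosome 2, 30837798 to 30878175) had 26.8, 25 and 26.7 CPM under vehicle, 14.3, 13.4 and 12.6 at 0.3 µM and 9.58, 12.3 and 12.7 at 1.0 µM in mock cells. With T-N1G it had 26.6, 26.7 and 27.8 CPM under vehicle, 31.9, 28.7 and 32.1 at 0.3 µM and 27.7, 32.3 and 41.6 at 1.0 µM. Treated mock libraries all lay below vehicle, while T-N1G libraries at 1.0 µM overlapped it. The changes at 1.0 µM were -1.18 (SE 0.128, adjusted p = 2.31e-07) in mock and 0.33 (SE 0.121, adjusted p = 0.0206) with T-N1G, and the difference was 1.51 (SE 0.176, adjusted p = 2.05e-06). The rise with T-N1G missed the threshold with library size alone (adjusted p = 0.227), with only the groups compared (0.0631) without T-N1G library 3 at 1.0 µM (0.177) and without both number 3 libraries at that dose (0.15). Usp33 rose in both lines, from 76.5, 75 and 74.8 to 145, 134 and 132 CPM in mock and from 78.7, 78.7 and 81.6 to 141, 143 and 137 CPM with T-N1G. Its difference between the lines was -0.04 (SE 0.0813, adjusted p = 0.697).

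Usp19, which has a form anchored in the endoplasmic reticulum, had 114, 115 and 111 CPM under vehicle, 170.4, 173 and 167 at 0.3 µM and 173, 172 and 140.0 at 1.0 µM in mock cells. T-N1G cells had 111, 109 and 112 CPM under vehicle, 231, 225 and 233 at 0.3 µM and 388, 344 and 321 at 1.0 µM. Both treated groups of either line lay above vehicle, and T-N1G cells above mock cells at each dose. The changes at 1.0 µM were 0.51 (SE 0.0794, adjusted p = 1.59e-05) and 1.67 (SE 0.0809, adjusted p = 3.29e-12), with a difference of 1.15 (SE 0.112, adjusted p = 2.41e-07). Usp38, which takes part in innate immune signalling, had 83.9, 84.4 and 81.7 CPM under vehicle, 104, 105 and 98.6 at 0.3 µM and 118, 103 and 96.8 at 1.0 µM in mock cells. With T-N1G it had 78.9, 83.7 and 78.5 CPM under vehicle, 122, 121 and 113 at 0.3 µM and 327, 201 and 267 at 1.0 µM. The 1.0 µM T-N1G libraries lay furthest apart and all above the rest, and the difference was 1.37 (SE 0.168, adjusted p = 3.55e-06), against 0.26 (SE 0.168, adjusted p = 0.276) at 0.3 µM.

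**Figure D5:**
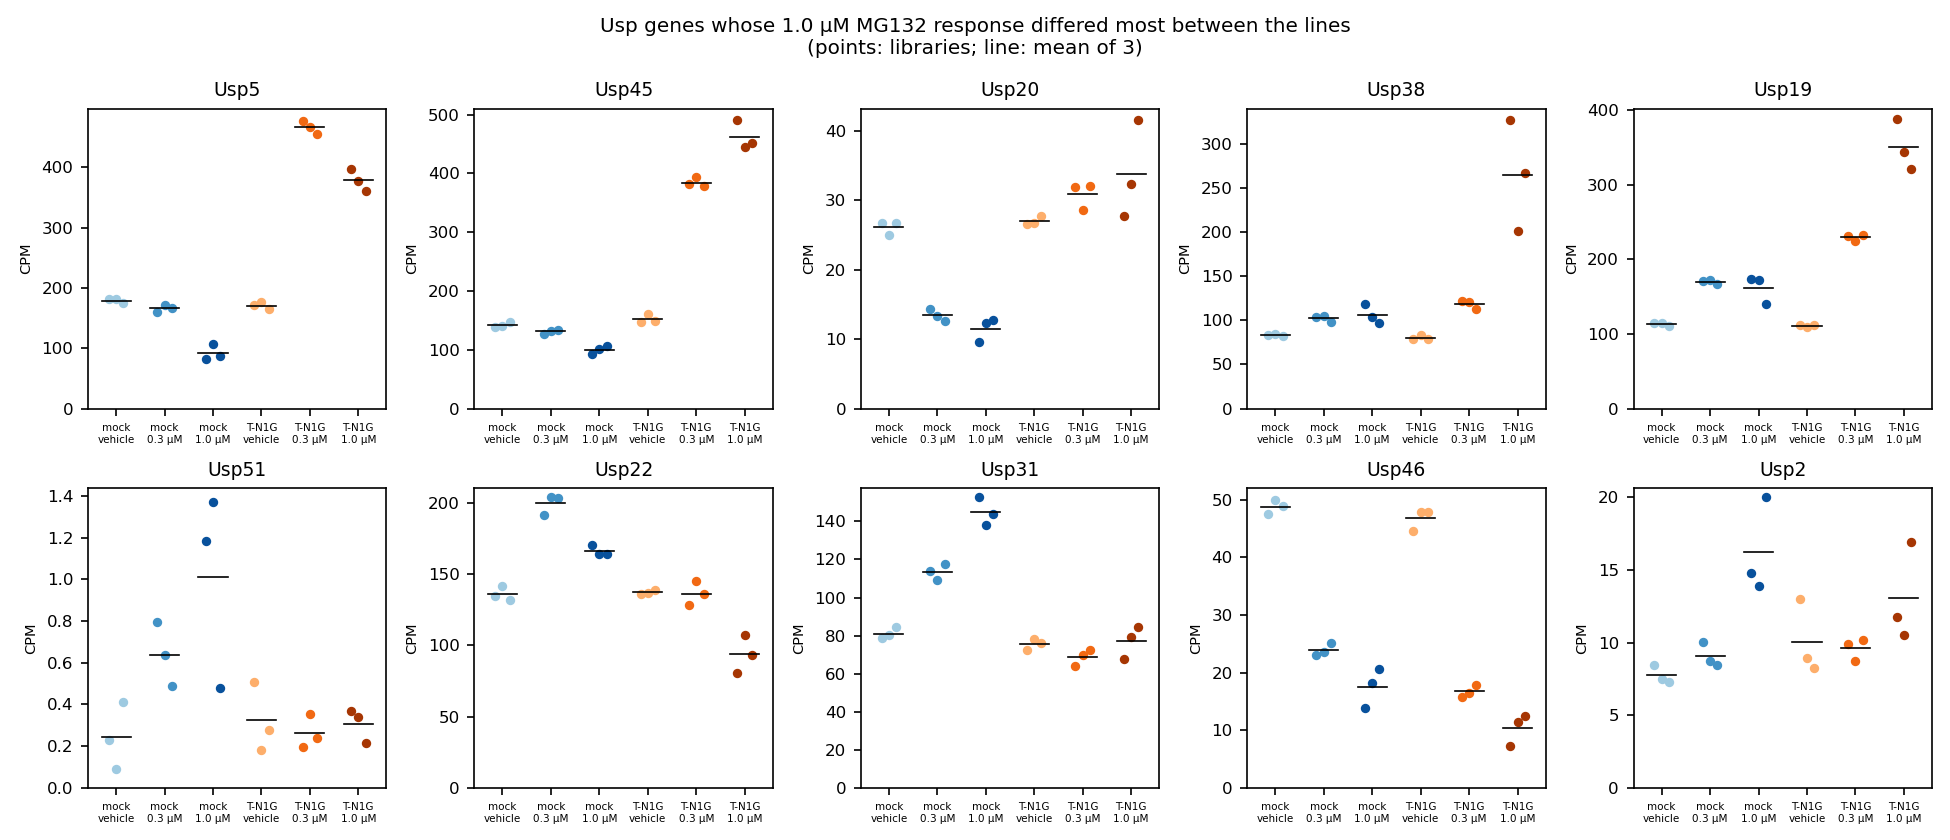
CPM by library (points) and group mean (line) for the 10 Usp genes with the largest called difference between the 1.0 µM responses, 5 higher with T-N1G (top) and 5 lower (bottom). Usp5 and Usp45 lie far apart between the lines at both doses, and Usp51 lies below 1.4 CPM throughout.

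Usp31 rose in mock cells, with 78.5, 80.1 and 84.5 CPM under vehicle, 114, 109 and 118 at 0.3 µM and 153, 138 and 144 at 1.0 µM. With T-N1G it stood at 72.5, 78.2 and 76 CPM under vehicle, 64.2, 69.9 and 72.3 at 0.3 µM and 67.8, 79.4 and 84.4 at 1.0 µM, where 0.3 µM lay below vehicle without overlap and 1.0 µM overlapped both. The difference at 1.0 µM was -0.81 (SE 0.109, adjusted p = 9.83e-06). Usp2, a protease of cyclin D1 and membrane channels, rose in mock cells from 8.43, 7.5 and 7.3 to 14.8, 13.9 and 20 CPM, and with T-N1G it had 13, 8.97 and 8.24 CPM under vehicle and 11.8, 10.5 and 17 CPM at 1.0 µM, which overlapped. The difference of -0.69 (SE 0.265, adjusted p = 0.043) missed the threshold when any 1 of 8 libraries was left out (adjusted p 0.0503 to 0.126). These were mock vehicle 2 and 3, mock 0.3 µM 2, mock 1.0 µM 3, T-N1G vehicle 1, T-N1G 0.3 µM 1, and T-N1G 1.0 µM 1 and 2. Usp30, which works on the mitochondrial outer membrane, rose in both lines, to 67.1 ± 3.65 CPM from 47.6 ± 1.74 CPM in mock and to 79.7 ± 1.08 CPM from 46.1 ± 1.94 CPM with T-N1G. Usp8, the endosomal protease of sorting complexes, rose by call with T-N1G, from 99.7, 102 and 109 to 149.7, 158 and 149.8 CPM, and in mock cells stood at 96, 95.7 and 98.7 CPM under vehicle and 100.3, 106 and 109 CPM at 1.0 µM, with a difference of 0.44 (SE 0.0825, adjusted p = 3.19e-04).

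All 5 genes of the last group, set apart because they act on other modifiers or lack known ubiquitin protease activity, rose in mock cells at 1.0 µM, and 4 of them rose with T-N1G. Of all genes 32.4% and 37.5% rose, and the difference between the lines was called for 2 of the 5 against 45.0% of all genes. Usp18, which removes the ubiquitin-like ISG15 and is known as an interferon-induced gene, varied widely between libraries. It had 1.01, 0.555 and 0.593 CPM under vehicle, 1.79, 1.08 and 1.32 at 0.3 µM and 33, 5.7 and 54.6 at 1.0 µM in mock cells, and 6.67, 1.79 and 1.79 CPM under vehicle, 3.96, 1.11 and 2.53 at 0.3 µM and 15.8, 5.75 and 41.5 at 1.0 µM with T-N1G. The number 2 library was lowest in each line at 1.0 µM, and with T-N1G it lay below vehicle library 1. The log2 change was 5.42 (SE 1.02, adjusted p = 3.15e-04) in mock and 2.62 (SE 0.834, adjusted p = 0.0111) with T-N1G, and the difference of -2.80 did not pass (adjusted p = 0.109). The T-N1G call was lost without T-N1G library 3 at 1.0 µM (adjusted p = 0.091) and without both number 3 libraries at that dose (0.072).

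Usp53, which is found at tight junctions, rose from 13.8, 15.9 and 15.5 to 40, 27.9 and 40.6 CPM in mock and from 15.4, 15.2 and 13.9 to 40.1, 28.2 and 45.2 CPM with T-N1G. Treated libraries lay above vehicle without overlap in each line, the lines overlapped each other, the changes were 1.26 (SE 0.152, adjusted p = 8.38e-07) and 1.35 (SE 0.153, adjusted p = 2.49e-07), and the difference was 0.08 (SE 0.214, adjusted p = 0.78). Usp39, a spliceosome component, rose in both lines, with changes of 0.38 and 0.66 and a difference of 0.28 (SE 0.094, adjusted p = 0.0208). Usp54 rose in both (0.41 and 0.42), in a deposited locus shared with Ppp3cb. Usp6nl rose in mock cells, from 39.4, 43.7 and 44.7 to 68.5, 54.2 and 58 CPM, and with T-N1G had 39, 42.6 and 40.6 CPM under vehicle and 36, 40.9 and 38.8 CPM at 1.0 µM, with a difference of -0.58 (SE 0.127, adjusted p = 0.0012).

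Without MG132 few of these genes were called between the lines. Under vehicle 5 of 50 were called between T-N1G and mock cells, 2 higher and 3 lower, where 16.1% of all genes were called (8.43% higher, 7.72% lower). The higher were Usp11 at 0.49 (SE 0.141, adjusted p = 0.0226) and Usp25 at 0.33 (SE 0.0638, adjusted p = 0.00164), and the lower Usp24 at -0.31 (SE 0.0805, adjusted p = 0.012), Usp36 at -0.30 (SE 0.068, adjusted p = 0.00449) and Usp32 at -0.23 (SE 0.0758, adjusted p = 0.0425). Usp11, a nuclear and cytosolic relative of Usp4, had 11.3, 9.95 and 10.6 CPM in mock and 15.5, 13.8 and 15.7 CPM with T-N1G, and Usp32, a Golgi-linked protease, 107, 113 and 114 CPM in mock and 90.7, 94.2 and 98.9 CPM with T-N1G. For each of the 5 genes the libraries of the lines did not overlap, which adds no support, since the same values gave the calls. The count was 13, 5 higher and 8 lower, when only these 2 groups were fitted. It was 2 without mock vehicle library 3 and 3 without mock vehicle library 2, T-N1G vehicle library 1 or T-N1G vehicle library 3. Usp11 lost its call without any 1 of these 4, Usp24 without mock vehicle 3, and Usp32 without any 1 vehicle library, any mock library at 0.3 µM or T-N1G library 2 at 0.3 µM (adjusted p up to 0.107, 0.055 and 0.156).

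At 0.3 µM 28 genes were called between the lines, 16 higher and 12 lower with T-N1G, where 48.5% of all genes were called (25.0% higher, 23.5% lower), and of the 43, 14 higher and 11 lower. Usp17le (2.10), Usp17ld (1.90), Usp45 (1.55), Usp5 (1.49) and Usp20 (1.20) led the higher on the log2 scale. Usp51 (-1.26), Usp36 (-0.81), Usp35 (-0.73), Usp31 (-0.72) and Usp22 (-0.55) led the lower. Usp17le, Usp17ld and Usp51 entered through the groups where they were high, so their places at either dose are a description. The call of Usp17ld was lost without any 1 library at 0.3 µM, mock vehicle 2 or 3, or T-N1G vehicle 2 (adjusted p up to 0.14). That of Usp51 was lost without any 1 T-N1G library at 0.3 µM, mock 0.3 µM 1 or 2, mock vehicle 1, T-N1G vehicle 3, or library 1 of either line at 1.0 µM (adjusted p up to 0.145). Usp35, of mitochondria, had 8.98, 10 and 9.12 CPM in mock and 5.55, 5.21 and 6.16 CPM with T-N1G, without overlap. At 1.0 µM 35 genes were called, 22 higher and 13 lower, against 61.9% of all genes (30.7% higher, 31.3% lower), and of the 43, 20 higher and 12 lower. The largest were Usp17ld (2.24), Usp45 (2.20), Usp5 (2.04), Usp20 (1.55) and Usp17le (1.42) upward, and Usp51 (-1.69), Usp31 (-0.91), Usp22 (-0.82), Usp46 (-0.76) and Usp24 (-0.72) downward.

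Within each line the doses were set side by side. At 0.3 µM 29 genes were called against vehicle in mock cells, 22 higher and 7 lower, where 53.1% of all genes were called (25.0% higher, 28.1% lower). With T-N1G 29 were called, 23 higher and 6 lower, against 59.4% (29.1% higher, 30.3% lower). The 43 gave 19 higher in each line, with 7 lower in mock and 6 lower with T-N1G. At this dose 13 rose in both lines, 26.0% against 17.1% of all genes, and 4 fell in both, 8.0% against 19.4%. None moved in opposite directions by both calls, where 1.80% of all genes fell in mock and rose with T-N1G and 1.06% did the reverse. Going from 0.3 to 1.0 µM, 16 genes rose and 13 fell in mock cells, against 49.6% of all genes called (21.8% higher, 27.8% lower), and 12 rose and 13 fell of the 43. With T-N1G 24 rose and 10 fell over that step, against 60.0% (29.3% higher, 30.8% lower), or 17 and 12 with library size alone, and 18 rose and 10 fell of the 43. Usp5 was highest at 0.3 µM with T-N1G, falling by 0.30 on the log2 scale to 1.0 µM (adjusted p = 0.00378), while Usp45 rose by 0.27 and Usp38 by 1.16.

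The start regions were searched for 4 motifs on both strands, from 250 bases before to 50 after each RefSeq start (GRCm38.p6). The table matched 39 of the 50 genes with 40 windows, and held no entry for Usp1, Usp5, Usp9x, Usp17le, Usp18, Usp22, Usp33, Usp39, Usp42, Usp44 and Usp53. The antioxidant response element core TGACNNNGC was found for 10 genes, 25% of these windows against 12.4% of all 32851 windows. They were Usp2, Usp10, Usp13, Usp17la, Usp17lc, Usp20, Usp25, Usp32, Usp34 and Usp36. Usp17la and Usp17lc are near-identical copies that entered through treated libraries and share the stretch with the core. The 25% counts both, so it cannot show an excess in the set. Among the 10 genes, the difference between the lines at 1.0 µM was called higher for Usp10, Usp13 and Usp20 and lower for Usp2, Usp25 and Usp36. The NF-Y box CCAAT was found for 11 genes, 27.5% against 37.4% of windows, and the C/EBP-ATF element TGATGNAA for Usp6nl alone, against 3.97% of all windows. The NF-Y count includes the copies Usp17la, Usp17lb, Usp17lc and Usp17ld. The heat shock element was in none, against 0.603% of all windows. A match is a string in the sequence and does not show that a factor binds.

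The regions of Usp20, Usp45 and Usp13 are printed as examples from the genes with a higher response with T-N1G. Usp38 and Usp19 had larger differences at 1.0 µM than Usp13 (1.37 and 1.15), and their windows hold no antioxidant response element core. For Usp20 (window chr2:30982029-30982328, +) and Usp45 (chr4:21776020-21776319, +) the 250 bases before the start are given, and for Usp13 (chr3:32817376-32817675, +) 49 bases from the upstream part. Capitals mark the core TGACNNNGC, which begins 25 bases before the start in Usp20 and 101 before it in Usp13. The window of Usp45 holds no such string.
Usp20: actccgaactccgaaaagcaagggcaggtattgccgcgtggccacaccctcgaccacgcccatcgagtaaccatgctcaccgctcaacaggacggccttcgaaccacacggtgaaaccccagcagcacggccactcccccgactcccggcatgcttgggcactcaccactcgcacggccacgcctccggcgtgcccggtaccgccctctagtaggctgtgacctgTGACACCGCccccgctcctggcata
Usp45: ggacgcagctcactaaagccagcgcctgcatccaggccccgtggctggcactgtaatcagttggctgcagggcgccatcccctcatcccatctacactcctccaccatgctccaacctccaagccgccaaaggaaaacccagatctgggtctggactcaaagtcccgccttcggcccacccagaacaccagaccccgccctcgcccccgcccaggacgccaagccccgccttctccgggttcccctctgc
Usp13: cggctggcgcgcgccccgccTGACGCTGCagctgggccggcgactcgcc

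Other deubiquitinases of the cells were counted for comparison, from a list of the UCH, OTU, Josephin, JAMM, MINDY and ZUFSP families with Cyld and Uspl1. The tables list 39 of them, and 37 were tested. At 1.0 µM 27 were called in mock cells, 19 higher and 8 lower, and 33 with T-N1G, 26 higher and 7 lower. These are 73.0% and 89.2% of the 37, against 86.0% and 80.0% of the 50 Usp genes and 69.7% and 76.4% of all genes. The difference between the lines was called for 23 (62.2%, against 45.0% of all genes), 15 higher and 8 lower. Highest were Fam63a, a protease of long chains, at 1.68 (SE 0.135, adjusted p = 2.35e-08), Josd1 at 1.56 (SE 0.134, adjusted p = 4.98e-08) and Uchl1 at 1.38 (SE 0.205, adjusted p = 3.32e-05), followed by Cops5 of the COP9 signalosome at 1.20, the proteasome lid protease Psmd14 at 0.96 and Bap1 at 0.92. Psmd14 had 106, 114 and 103 CPM in mock and 238, 201 and 219 CPM with T-N1G at 1.0 µM, against 86.3, 97.1 and 85 CPM in mock and 92.5, 96.8 and 90.9 CPM with T-N1G under vehicle. Lowest were Tnfaip3, the NF-kappaB regulator A20, at -1.49 (SE 0.247, adjusted p = 1.02e-04) and Otud1 at -1.35 (SE 0.217, adjusted p = 6.72e-05). At 1.0 µM Tnfaip3 had 118, 83.3 and 81.5 CPM in mock and 29.5, 19.1 and 25 CPM with T-N1G, and Otud1 32.9, 43.3 and 28.4 CPM in mock and 14.2, 13.6 and 13.4 CPM with T-N1G. The others called higher, Vcpip1, Zufsp, Yod1, Mysm1, Zranb1, Stambp, Otud6b, Otub1 and Brcc3, lay between 0.36 (Brcc3) and 0.79 (Vcpip1), and the others called lower, Uchl3, Uspl1, Fam188a, Otud4, Stambpl1 and Cyld, between -0.70 (Uchl3) and -0.33 (Cyld). The largest called rises were Uchl4, Tnfaip3 and Otud1 in mock and Uchl4, Uchl1 and Zufsp with T-N1G. Uchl4 was near the floor, with 0, 1 and 1 fragments in mock libraries under vehicle and 15, 1 and 10 at 1.0 µM. With T-N1G it had 2, 1 and 1 under vehicle and 25, 2 and 23 at 1.0 µM, so library 2 hardly rose in either line. The largest falls were Mpnd, Josd2 and Fam63b in mock and Mpnd, Fam63b and Josd2 with T-N1G.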

How the data were processed

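RNA was taken with a column kit, selected for poly(A) and made into strand-specific libraries, per the labels' protocols. The submitters' processing notes name the mouse build mm9 and the tools Cuffdiff 2.1.1, TopHat2 2.0.8b and bcl2fastq 2.16.0.10. For the annotation and the strand setting of counting, no value is given in the sources used here. Per the file headers, the authors deposited, by gene and library, the estimated count of fragments before scaling and the FPKM after Cuffdiff's scaling. Between 98.16% and 98.51% of a library's estimated counts, as deposited, lay within 1e-06 of a whole number, and all were rounded. Line, dose and library number were read from Cuffdiff's condition names and replicate order, where N1 was read as T-N1G, L-MG as the lower and H-MG as the higher dose, and replicate numbers taken as the title number less 1, links that the files do not state. Gene positions are as deposited on mm9. For Usp16, Usp34, Usp37 and Usp54 the deposited position is a locus shared with overlapping neighbours. The 2 genes with the status HIDATA in a library were left out, and the 20 with the status FAIL were kept. No pair of libraries of a group agreed within sampling noise.

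The test was edgeR's quasi-likelihood F test (edgeR 4.0.16, R 4.3.3) after TMM scaling and filterByExpr with the groups, with robust dispersion and all 18 libraries in 1 fit of 6 group means. Adjusted p values are Benjamini-Hochberg values over the 13258 genes tested, and calls are at 0.05. The 11 comparisons were T-N1G against mock at each treatment, each dose against vehicle and 1.0 against 0.3 µM in each line, and the interaction at each dose. Levels other than marker sums are TMM-scaled CPM, given by library in the order of their numbers 1 to 3, or as mean ± SD with n = 3. Standard errors are the absolute log2 fold change divided by the root of F. Alternatives were RLE (relative log expression) scaling, library size alone, no filter, DESeq2 1.42.0, only the groups compared, the library number as a replicate block, each library left out, and, chosen after seeing the data, both libraries of 1 number at 1.0 µM left out.

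Members and lists were chosen with earlier results of these data known. Named genes are the 5 called genes of largest change in each direction against vehicle at 1.0 µM, between the lines and in the interaction at 1.0 µM, and other genes given with library values were chosen after their values were seen. The comparisons share vehicle groups, so their values are set side by side and not correlated.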

Additional observations from a re-analysis of the deposited data

Results flagged for a closer look

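The response to MG132 differed between the lines, by the interaction test, for the following genes named above. Values are log2 differences, T-N1G less mock. Of the chain-directed proteases, Usp5 differed by 1.56 at 0.3 µM and 2.11 at 1.0 µM, and at 1.0 µM Usp46 by -0.70, Usp25 by -0.69 and Usp24 by -0.41. Of the nuclear proteases, Usp45 differed by 1.45 and 2.10 at the 2 doses, Usp22 by -0.57 and -0.84 and Usp36 by -0.51 and -0.36. Usp48 differed by 0.36, a call lost when any 1 of 9 libraries was left out. Usp51 differed by -2.08 at 1.0 µM, a description since treated mock libraries brought it into the set. Of the membrane group, Usp20 differed by 1.16 and 1.51 at the 2 doses, Usp19 by 0.47 and 1.15 and Usp31 by -0.62 and -0.81. Usp38 differed by 1.37 and Usp2 by -0.69 at 1.0 µM.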

How the results depend on the processing

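Of 297 counts of called Usp genes recomputed under 27 alternatives, 291 stayed within 1.5 times the value reported. With only the groups compared in the fit, 13 genes (5 higher, 8 lower) were called between the lines under vehicle and 30 (15 and 15) in the interaction at 0.3 µM. Leaving out 1 library gave 2 to 6 calls between the lines under vehicle, 23 to 30 at 0.3 µM and 33 to 36 at 1.0 µM. It gave 22 to 30 and 40 to 43 in mock cells at 0.3 and 1.0 µM, 25 to 31 and 37 to 41 with T-N1G, 24 to 31 and 27 to 35 for the dose step, and 11 to 16 and 20 to 28 for the interactions. Every such count for the interaction at 1.0 µM was below the 29 reported. Of 1480 values of the 55 named results, 1424 kept direction and call, 56 kept direction and lost the call, and 0 reversed. A named result is a named gene in the comparison that named it. Such genes were named for large called changes in the same data, so a kept call is weak support. Of the 27 alternatives 18 leave out 1 library, in some cases from a group outside the comparison. Calls of the named genes in other comparisons are outside the count of 1480, and some were lost, such as the Usp48 interaction at 1.0 µM. The lost calls counted concern 7 results: Usp11, Usp24 and Usp32 under vehicle, Usp17ld and Usp51 between the lines at 0.3 µM, and Usp51 and Usp2 in the interaction at 1.0 µM. The cause was not tested. DESeq2 called 28 genes in the interaction at 1.0 µM, 15 higher and 13 lower.

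No label states that the library numbers pair the samples. Of 45 same-number correlations of deviations from the group mean, 35 exceeded 0.1, with a median of 0.177 and a lowest of -0.0883. Of 90 different-number correlations 17 did, with a median of -0.124. For all but 2 of the 18 libraries the mean correlation was highest with libraries of their own number, a hint from the data only. With the replicate block, 5, 28 and 37 genes were called between the lines under vehicle, at 0.3 and at 1.0 µM, 29 and 42 in mock and 29 and 40 with T-N1G, 30 and 35 for the dose step and 15 and 31 for the interactions. The block ended the calls of Usp13 in mock cells at 1.0 µM (adjusted p = 0.0502) and Usp27x between the lines at 0.3 µM (0.0524). Precision is limited for the 7 genes under 10 fragments in some libraries, and by 3 libraries per group.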

Other observations

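Libraries of the same number at 1.0 µM were alike in rank in both lines. For 30 of the 50 Usp genes the same number was lowest in both lines, 60.0%, against 59.4% of all genes, and for 28 it was highest in both, 56.0% against 58.1%. Numbers 1, 2 and 3 were lowest in both lines for 9, 11 and 10 Usp genes (18%, 22% and 20%, against 19.3%, 19.2% and 21% of all genes). Examples of number 2, chosen after their values were seen, are Usp18 (33, 5.7 and 54.6 CPM in mock and 15.8, 5.75 and 41.5 CPM with T-N1G), Usp53 (40, 27.9 and 40.6 CPM in mock and 40.1, 28.2 and 45.2 CPM with T-N1G) and Usp9x (594, 334 and 516 CPM in mock and 659.5, 509 and 698 CPM with T-N1G).

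Usp10, which acts on p53 and stress granule proteins, was called in mock cells at 1.0 µM (-0.30) and not with T-N1G (-0.06). Its difference of 0.24 (SE 0.092, adjusted p = 0.0408) was lost under DESeq2 (adjusted p = 0.0595) and with only the groups compared (adjusted p = 0.099). Usp40 fell in both lines, from 34.7 ± 1.35 to 23.5 ± 1.09 CPM in mock and from 37.4 ± 0.68 to 32.8 ± 2.74 CPM with T-N1G, and the T-N1G call was lost under RLE scaling (adjusted p = 0.107) and when any 1 of 7 libraries was left out, with 0.197 without T-N1G library 3 at 1.0 µM.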
